A study of Mus musculus with 30 samples.

Results

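The glycolytic enzymes described here were 10 genes of the heart, *Pfkm*, *Pfkfb2*, *Aldoa*, *Gapdh*, *Pgk1*, *Pgam2*, *Eno3*, *Pkm*, *Ldha* and *Ldhb*, taken by name from 49671 genes of the deposited table of the peptide study and from the antibody study after its transcripts were summed to genes. All 10 were found in both tables, and all 10 passed the filter of a mean of 10 counts per heart in every comparison, so no enzyme was left out. Total RNA of the left ventricle was sequenced from male wild type C57BL6 mice (C57BL6J by the methods) in 2 separate studies, 30 hearts in all. The peptide study asked what Aβ42, the amyloid peptide, does to the heart, and the antibody study asked what neutralising it does in obesity.

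In the peptide study, 7 mice were administered Aβ42 and 7 mice the scrambled control peptide ScrAβ42, by daily intraperitoneal injection for 4 weeks from 12 weeks of age by the labels, or from 10 to 12 weeks by the methods. The labels give the dose as 1 mg per day, and the methods of the study give the same figure in micrograms, so the dose is uncertain. In the antibody study, 8 mice were administered 3D6, an antibody that neutralises Aβ42, and 8 mice a control IgG2a antibody. Both were given at 0.75 mg/kg once weekly, for 4 months by the labels. The methods place echocardiography after 12 weeks of high-fat feeding and the killing shortly after it, so the duration is uncertain. By the methods all 16 of these mice ate a high-fat diet from about 12 weeks of age, whereas the series' design text describes them as mice that had also received Aβ42, and this conflict was not resolved here. The injected Aβ42 has the human sequence, and on gels it ran as single peptides and small aggregates. Peptide study mice came from a cohort killed after a glucose tolerance test or from one killed after echocardiography, and the labels do not say which. For the source of the sequenced hearts, the paper points to the schematic of the experiment with the tolerance tests. Each library carries a mouse number of its own in the labels, and p-values measure the spread between these hearts.

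Glycolysis splits glucose into pyruvate and yields a little ATP. The adult heart draws most of its ATP from fatty acids, keeps the muscle forms of the glycolytic enzymes at high levels, and shifts between fuels with feeding, insulin and oxygen. Lactate dehydrogenase then interconverts pyruvate and lactate, and the subunit encoded by *Ldhb* predominates in cardiac muscle, where lactate is also taken up as fuel.

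The peptide study hearts had total counts of 4478991 to 6015767, and the antibody study hearts of 6397192 to 8310478. The lowest count of any enzyme in any heart was 46, for *Pgk1* in the peptide study, and the highest was 22506, for *Gapdh* in the antibody study. The 10 enzymes together held 0.453% to 0.757% of the counts of a heart given peptide and 0.741% to 1.07% of those of a heart given antibody. All 8 cardiomyocyte markers were detected in every group, and their summed level was at least 40835 CPM (the count of a gene scaled to a common library size, normalised by TMM) in every heart. Levels below are such CPM. Fold changes are of the treated over the control group, by the quasi-likelihood test of edgeR, and p-values were adjusted after Benjamini and Hochberg over all genes tested.

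Hearts differed in their content of markers of other tissue, and the hearts that stood apart are named here before the results. All 5 atrial markers, such as *Sln* and *Bmp10*, were detected, and their summed level ranged from 12.4 to 8417 CPM (median 1158) in the Aβ42 group and from 3.82 to 3665 CPM (median 10.5) in the ScrAβ42 group. Heart Abeta42_3457 had the highest atrial sum, 8417 CPM, together with the highest sum of the 4 smooth muscle markers, 2016 CPM, and of the 5 adipocyte markers, 521 CPM, and with the lowest cardiomyocyte sum, 40835 CPM. In the antibody study the atrial sum reached 2776 CPM in control heart 15 and 668 CPM in 3D6 heart 20. Its median was 2.88 CPM with the control antibody and 98.5 CPM with 3D6, and 2 control and 4 3D6 hearts were above 100 CPM. Control heart 22 had the lowest share of mitochondrial counts, 25.9%, at the end of a spread that went on from 28.7% to 37.8% in the other hearts of that study.

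The 2 sequences that follow are shown because the transcripts of *Pkm*, the pyruvate kinase of muscle, differ in them. Each is an exon of 167 bases that the other transcript lacks, read along the plus strand in GRCm38. The upstream exon at chr9:59675029-59675195 is exon 9 of Pkm-202, and the downstream exon at chr9:59675568-59675734 is exon 9 of Pkm-201. Capitals mark the 64 bases that differ, and 61.7% of the bases are identical.
Pkm upstream exon: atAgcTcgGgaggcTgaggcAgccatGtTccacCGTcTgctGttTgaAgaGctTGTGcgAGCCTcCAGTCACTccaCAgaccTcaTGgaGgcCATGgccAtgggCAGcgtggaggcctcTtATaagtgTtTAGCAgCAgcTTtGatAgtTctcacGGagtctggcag
Pkm downstream exon: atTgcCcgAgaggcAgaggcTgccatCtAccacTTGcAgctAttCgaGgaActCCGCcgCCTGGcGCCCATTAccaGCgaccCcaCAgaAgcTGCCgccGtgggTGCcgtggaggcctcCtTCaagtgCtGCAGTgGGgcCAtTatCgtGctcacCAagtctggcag

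Phosphofructokinase commits sugar to glycolysis, and *Pfkm* (chr15:98092589-98132451, plus strand, like all gene positions here in GRCm38) encodes its muscle subunit. In the peptide study *Pfkm* had a lowest, median and highest level of 665, 1046 and 1209 CPM in the Aβ42 hearts and of 899, 1139 and 1225 CPM in the ScrAβ42 hearts. The lowest value belonged to heart Abeta42_3457, and the ranges overlapped. The log2 fold change was -0.11 ± 0.121 (standard error, n = 7 against 7; edgeR adjusted p = 0.913). The same values were 699, 748 and 768 CPM in the 3D6 hearts and 489, 702 and 772 CPM in the control antibody hearts. The 3D6 hearts lay close together, 7 of 8 above the control median, while control heart 22 lay far below the other controls, the lowest of which had 662 CPM. The log2 fold change was 0.12 ± 0.0848 (edgeR adjusted p = 0.946), and without control heart 22 it was 0.07.

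*Pfkfb2* (chr1:130689182-130729253, minus strand) encodes the cardiac form of the enzyme that makes fructose 2,6-bisphosphate, the activator of phosphofructokinase. It was the weakest of the 10 per length in the antibody study and among the 2 weakest in the peptide study. Its lowest, median and highest levels were 43.8, 48.8 and 69.4 CPM with Aβ42 and 34.3, 56.5 and 86.3 CPM with ScrAβ42. The scrambled peptide group spanned the whole range of the other. The log2 fold change of -0.19 ± 0.168 was the lowest of the 10 in this study (edgeR adjusted p = 0.879). With 3D6 the values were 27.9, 43 and 45.3 CPM, and with the control antibody 29, 42.4 and 62 CPM. The 3D6 hearts were even except for heart 24, and the log2 fold change was -0.11 ± 0.137 (edgeR adjusted p = 0.946).

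Aldolase A, encoded by *Aldoa* (chr7:126795234-126800751, minus strand), cleaves fructose 1,6-bisphosphate into 2 triose phosphates. It had the highest count of the 10 enzymes in the peptide study, with 1185, 1958 and 2547 CPM as lowest, median and highest level in the Aβ42 hearts and 1587, 2111 and 2351 CPM in the ScrAβ42 hearts. Both the lowest and the highest heart of the study were in the Aβ42 group, so the ScrAβ42 hearts lay inside its range. This gave a log2 fold change of -0.08 ± 0.139 (edgeR adjusted p = 0.947). Levels were 1849, 2388 and 2715 CPM with 3D6 and 1902, 2395 and 2684 CPM with the control antibody. The medians differed by less than the spread in either group, and the log2 fold change was -0.05 ± 0.101 (edgeR adjusted p = 0.948).

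*Gapdh* (chr6:125161715-125166467, minus strand) encodes glyceraldehyde 3-phosphate dehydrogenase, the step that forms NADH, and is often used as a reference gene. It had 39.7, 77.4 and 95.4 CPM as lowest, median and highest level in the Aβ42 hearts and 59.6, 78.2 and 89.6 CPM in the ScrAβ42 hearts, with a log2 fold change of -0.1 ± 0.154 (edgeR adjusted p = 0.946). It had 2031, 2474 and 3014 CPM with 3D6 and 2113, 2602 and 2926 CPM with the control antibody, with a log2 fold change of -0.03 ± 0.104 (edgeR adjusted p = 0.971). The groups overlapped in both studies. Its coefficient of variation within groups, averaged over the 2 groups, was 19.5% among peptide study hearts and 13.2% among antibody study hearts, which placed it 7th and 3rd from the steadiest among 11 common reference genes. *Hprt* was the steadiest of these in the peptide study, at 8.64%, and *Ywhaz* in the antibody study, at 8.35%.

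*Pgk1* (chrX:106187100-106203699, plus strand) encodes phosphoglycerate kinase, the first step of glycolysis that returns ATP. Its levels in the peptide study were low, 8.79, 13.1 and 19.7 CPM with Aβ42 and 12.6, 14.2 and 19.4 CPM with ScrAβ42, and heart Abeta42_3455 was the lowest. This gave a log2 fold change of -0.07 ± 0.152 (edgeR adjusted p = 0.96). Its lowest, median and highest level were 148, 175 and 198 CPM with 3D6 and 118, 175 and 200 CPM with the control antibody. The medians were equal and the log2 fold change was 0 ± 0.0969 (edgeR adjusted p = 0.999). Control heart 22 had the 118 CPM, and no other control heart had less than 167 CPM.

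*Pgam2* (chr11:5801640-5803733, minus strand), the muscle phosphoglycerate mutase, moves the phosphate of 3-phosphoglycerate. With Aβ42 its lowest, median and highest level were 253, 360 and 473 CPM, and with ScrAβ42 321, 337 and 440 CPM. It had the smallest difference of the 10 in the peptide study, a log2 fold change of -0.01 ± 0.128 (edgeR adjusted p = 0.995). Mice given antibody had levels of 278, 393 and 522 CPM with 3D6 and 305, 467 and 580 CPM with the control antibody. The 3D6 hearts 4 and 7 were below every control heart, and the other 3D6 hearts lay within the control range. The log2 fold change of -0.2 ± 0.148 was the lowest of the 10 in the antibody study and did not pass the test (unadjusted p = 0.199, edgeR adjusted p = 0.946).

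Enolase makes phosphoenolpyruvate, and *Eno3* (chr11:70657202-70662513, plus strand) encodes its muscle form. It spanned 491, 1056 and 1249 CPM as lowest, median and highest level with Aβ42 and 832, 1100 and 1317 CPM with ScrAβ42. The lowest heart was Abeta42_3457, and the next lowest of its group, Abeta42_3455, had 824 CPM. This gave a log2 fold change of -0.16 ± 0.169 with all hearts (edgeR adjusted p = 0.905) and of -0.05 without Abeta42_3457. Antibody study hearts had levels of 525, 665 and 749 CPM with 3D6 and 509, 666 and 758 CPM with the control antibody. Lowest, median and highest hearts lay close together in the 2 groups, and the log2 fold change was -0.03 ± 0.101 (edgeR adjusted p = 0.967).

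Pyruvate kinase closes glycolysis. *Pkm* (chr9:59656368-59679375, plus strand) had 370, 610 and 793 CPM as lowest, median and highest level with Aβ42 and 516, 620 and 803 CPM with ScrAβ42, with a log2 fold change of -0.08 ± 0.145 (edgeR adjusted p = 0.951). Among antibody study hearts it had 857, 993 and 1093 CPM with 3D6 and 847, 992 and 1078 CPM with the control antibody, with a log2 fold change of 0.03 ± 0.0774 (edgeR adjusted p = 0.958). It was among the steadiest of the 10 in the antibody study, where the coefficient of variation was 7.54% in the 3D6 hearts and 8.23% in the control hearts.

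*Ldha* (chr7:46841475-46855627, plus strand) and *Ldhb* (chr6:142490249-142507957, minus strand) encode the 2 subunits of lactate dehydrogenase. *Ldha* had 233, 320 and 405 CPM as lowest, median and highest level with Aβ42 and 292, 353 and 363 CPM with ScrAβ42 (log2 fold change -0.09 ± 0.109, edgeR adjusted p = 0.921). *Ldhb* had 446, 987 and 1155 CPM with Aβ42 and 679, 968 and 1054 CPM with ScrAβ42 (log2 fold change -0.04 ± 0.174, edgeR adjusted p = 0.98). The Aβ42 hearts reached both lower and higher than the ScrAβ42 hearts for each gene. Among antibody study hearts *Ldha* had 374, 443 and 482 CPM with 3D6 and 387, 447 and 504 CPM with the control antibody (log2 fold change -0.03 ± 0.0839, edgeR adjusted p = 0.959). *Ldhb* had 817, 1097 and 1167 CPM with 3D6 and 873, 1054 and 1212 CPM with the control antibody (log2 fold change 0 ± 0.0962, edgeR adjusted p = 0.998). The ranges of both genes overlapped between the antibody groups.

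**Figure D1:**
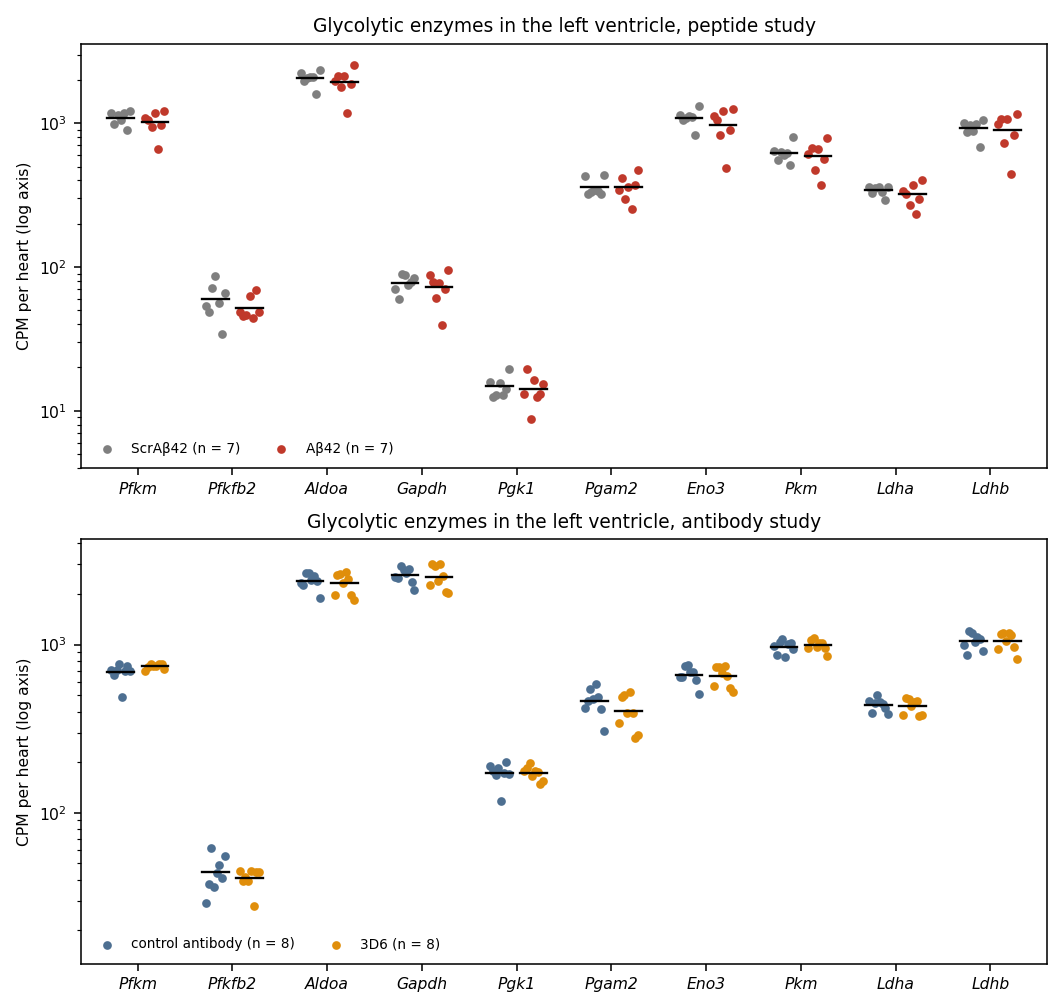
CPM of the 10 enzymes per heart on a log axis, 1 point per heart and a bar at the group mean, in the peptide study (7 hearts a group) and the antibody study (8 hearts a group). The groups overlap for every enzyme, and *Gapdh* and *Pgk1* lie far lower in the upper panel than in the lower one.

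The balance of the 2 subunits was compared within each heart, which takes out the scaling between hearts. The log2 ratio of *Ldha* to *Ldhb* per transcript length was -1.74 ± 0.245 (SD, n = 7) with Aβ42 and -1.71 ± 0.126 (n = 7) with ScrAβ42, which differed by -0.028 (exact permutation test over hearts, two-sided, p = 0.823, the same when adjusted over the 2 ratio tests). Leaving out 1 heart moved this difference between -0.113, without heart Abeta42_3457, and 0.019, without heart Abeta42_3452, and it was 0.006 without heart ScrAbeta42_3448. It was -1.58 ± 0.0809 (n = 8) with 3D6 and -1.54 ± 0.111 (n = 8) with the control antibody, differing by -0.037 (exact permutation p = 0.459, adjusted 0.823). On a linear scale *Ldha* stood at between 0.304 and 0.345 of *Ldhb* in all 4 groups. In the peptide study the highest ratio was that of heart Abeta42_3457, -1.23, and the next highest Aβ42 heart had -1.71.

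In the peptide study 0 of the 10 enzymes passed the adjusted test, and 0 of 11985 genes did (0%), where the lowest adjusted p of any gene was 0.091. None had an unadjusted p under 0.05, beside 780 genes (6.51%) over the table. DESeq2 called 12 genes (0.1%) and none of the 10. All 10 log2 fold changes were below 0, against 49.5% of all genes tested below 0 and 50.5% above it, with a median of -0.09 and a range from -0.19 for *Pfkfb2* to -0.01 for *Pgam2*, each within 2 standard errors of 0. Leaving out heart Abeta42_3457 gave 5 enzymes above and 5 below 0 and a median of -0.01. The direction was also no longer shared by all 10 without Abeta42_3455 (3 above 0), ScrAbeta42_3449 (2 above 0), ScrAbeta42_3441 or Abeta42_3451 (1 above 0 each). When the atrial marker score entered the fit, 9 of 10 were above 0 (49.1% of all genes), with a median of 0.09, and none had an unadjusted p under 0.05 (7.35% of all genes). Without the 6 hearts above 100 CPM of atrial markers, a limit chosen after seeing the data, which left 2 Aβ42 and 6 ScrAβ42 hearts, 4 were above and 6 below 0 with a median of -0.01.

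In the antibody study 0 of 10 enzymes passed the adjusted test and 0 of 12274 genes (0%), with 0.946 as the lowest adjusted p. None of the 10 had an unadjusted p under 0.05, beside 447 genes (3.64%) over the table, and DESeq2 called 0 genes. Log2 fold changes were below 0 for 7 enzymes and above 0 for 3, against 52.6% of all genes below 0 and 47.4% above it, with a median of -0.03. When the mitochondrial share of counts entered the fit, 7 were above and 3 below 0 with a median of 0.02 (50.2% of all genes above 0). Counts of 7 and 3, with a median of 0.02, were also found without the hearts above 100 CPM of atrial markers, which left 4 3D6 and 6 control hearts. Without 3D6 heart 4 or without 3D6 heart 7, 6 were above and 4 below 0. When the atrial marker score entered it, 3 were above 0 (48.1% of all genes), the median was -0.02, and none had an unadjusted p under 0.05 (3.52% of all genes). Intervals of 2 standard errors reached from -0.49 to 0.29 over the 10 enzymes in this study and from -0.52 to 0.31 in the peptide study. The interval of each single enzyme was narrower, such as -0.12 to 0.19 for *Pkm* in the antibody study. Changes inside the interval of an enzyme could not be told from 0 with this spread between hearts. In bulk tissue, fewer cells of a type and less RNA per cell cannot be told apart.

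**Figure D2:**
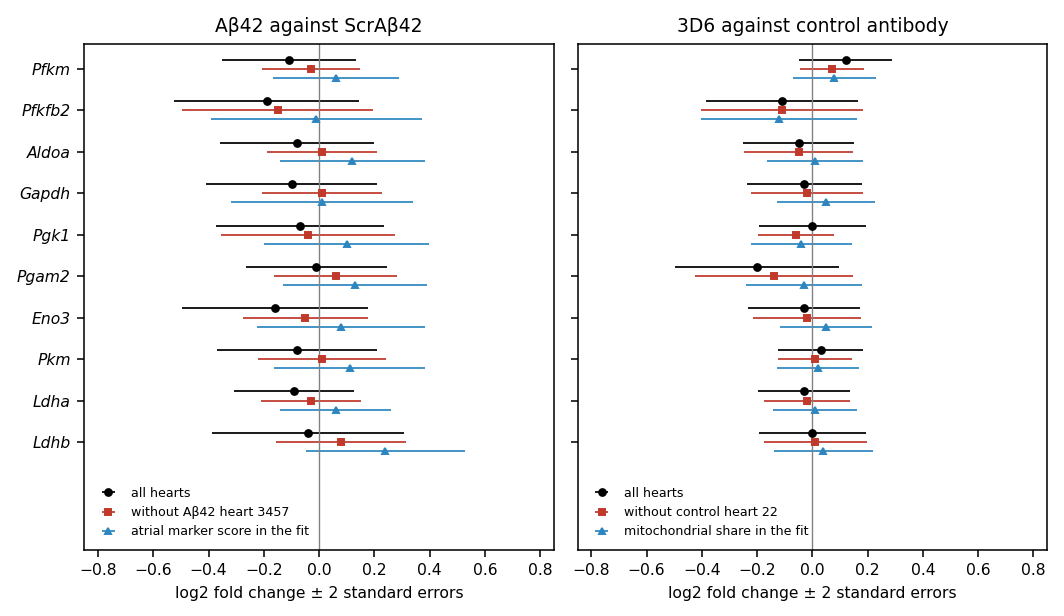
Log2 fold changes of the 10 enzymes with bars of 2 standard errors, in the peptide study (left) and the antibody study (right), with all hearts (circles), without 1 heart (squares) and with a covariate (triangles). Every bar with all hearts crosses 0, and on the left most estimates move from below 0 towards or past it when heart Abeta42_3457 is left out or the atrial marker score is in the fit.

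Most pairs of enzymes varied together across hearts. With group means removed, the median Pearson r over the 45 pairs of enzymes was 0.806 across the 14 hearts of the peptide study (Spearman median 0.727), and 0.66 without heart Abeta42_3457. It was 0.586 across the 16 hearts of the antibody study (Spearman median 0.518). Values of 1 heart share a library and its scaling, so these are descriptions. *Pfkfb2* followed the others least: its 9 pairs had a median r of 0.373 among peptide study hearts and -0.125 among antibody study hearts, while the 36 pairs without it had 0.831 and 0.683. Among antibody study hearts the pairs ran down to -0.399 for *Pfkfb2* and *Ldha* and, without *Pfkfb2*, to -0.239 for *Pfkm* and *Pgam2*.

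The mean of the 10 enzymes, as a log2 difference from the mean over the study, ran from -0.646 in heart Abeta42_3457 to 0.291 in heart ScrAbeta42_3449. Heart Abeta42_3457 held the lowest level of 8 of the 10 enzymes, heart Abeta42_3455 (-0.291) that of *Pgk1*, and heart ScrAbeta42_3448 (-0.228) that of *Pfkfb2*. These 3 hearts also had 3 of the 4 highest atrial sums and the 3 lowest cardiomyocyte sums of the study. Across its 14 hearts the enzyme mean had r = 0.953 (rho = 0.851) with the log2 cardiomyocyte sum, 0.9 without the 2 hearts farthest from the median, and r = -0.681 (rho = -0.468) with the log2 atrial sum, -0.46 without the 2 farthest. In the antibody study the enzyme mean ran only from -0.227 in 3D6 heart 7 to 0.183 in control heart 18. There r was 0.701 (rho = 0.8) with the cardiomyocyte sum over 16 hearts, and 0.558 without the 2 farthest, while with the atrial sum r was -0.312 (rho = -0.312), and -0.281 without the 2 farthest. With the mitochondrial share r was -0.435 (rho = -0.471) over these 16 hearts and -0.522 without the 2 farthest, and over the 14 hearts given peptide it was 0.66 (rho = 0.389) and only 0.13 without the 2 farthest. The part of other tissue in the differences between hearts was not tested.

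**Figure D3:**
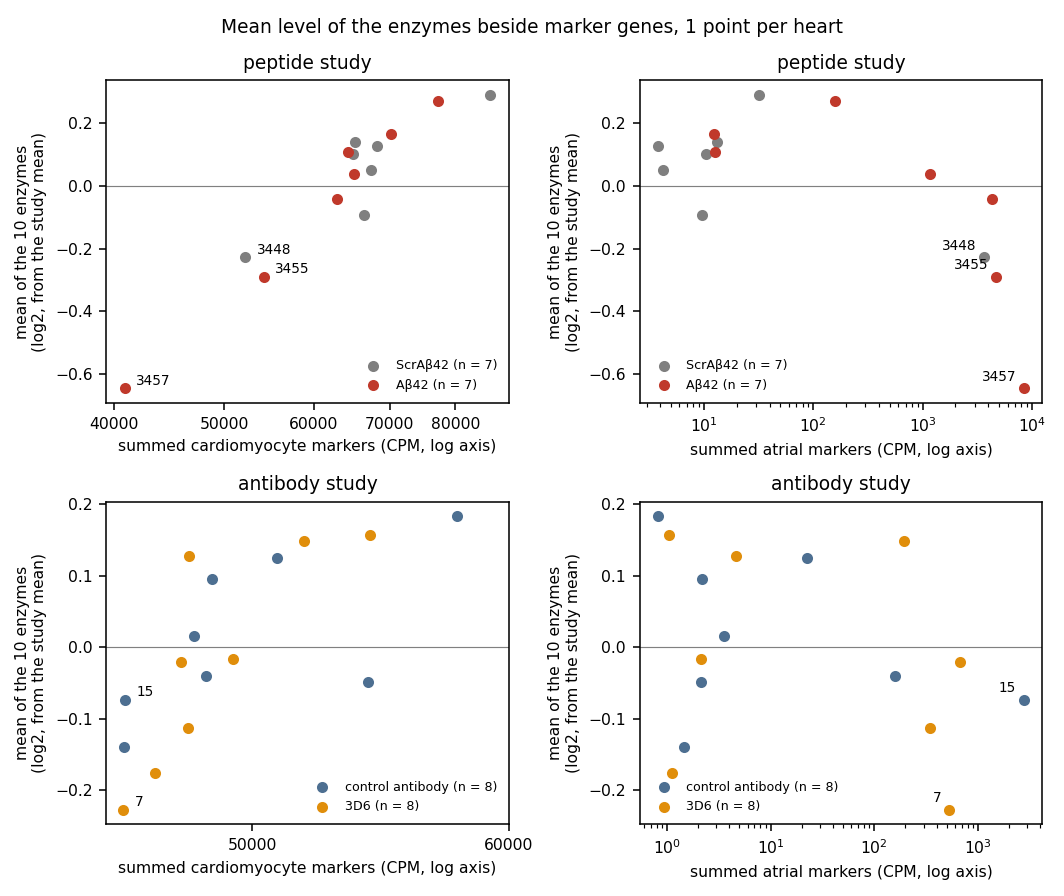
Mean of the 10 enzymes per heart, as a log2 difference from the mean of the study, beside the summed cardiomyocyte markers (left) and atrial markers (right) in CPM on log axes, 1 point per heart. In the peptide study hearts Abeta42_3457, Abeta42_3455 and ScrAbeta42_3448 are lowest in the enzymes and in cardiomyocyte markers, and high in atrial markers.

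Among 11351 other genes tested in both studies, the 5 most like the mean of the enzymes across hearts, by the smaller r of the 2 studies, were *Mb*, *Samm50*, *Coq10a*, *Pebp1* and *Gmnn*. *Mb*, which encodes myoglobin, had r = 0.957 over 14 hearts and 0.965 over 16 hearts. *Samm50*, of the outer mitochondrial membrane, had 0.969 and 0.947, and *Coq10a*, which binds coenzyme Q, had 0.946 and 0.962. *Pebp1* had 0.944 and 0.951 and *Gmnn*, which encodes the replication inhibitor geminin, 0.939 and 0.933.

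Levels of different genes can be set against each other only per length, so CPM were divided by the transcript length in kilobases, weighted by the transcripts' abundance in the antibody study. Among control hearts of the peptide study *Aldoa* led with 1417 ± 166 CPM per kilobase (SD, n = 7), followed by *Eno3* with 784 ± 103 and *Ldhb* with 716 ± 97.8, whose hearts overlapped. *Pgam2* (429), *Pfkm* (383) and *Pkm* (286) came next, each overlapping its neighbour, then *Ldha* (217), *Gapdh* (59), *Pfkfb2* (18.1) and *Pgk1* (8.09), of which only the last 2 overlapped. Among antibody study controls *Gapdh* led with 1958 ± 198 (n = 8), overlapping *Aldoa* with 1652 ± 175. *Ldhb* (815), *Pgam2* (548), *Eno3* (474) and *Pkm* (445) followed, each overlapping its neighbour, then *Ldha* (280) and *Pfkm* (239), which overlapped, *Pgk1* (94.5) and *Pfkfb2* (13.5). With the length of the longest transcript instead, *Gapdh* came after *Aldoa* and *Ldhb* in the antibody study, at 786 CPM per kilobase, and *Ldhb* passed *Eno3* in the peptide study.

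**Figure D4:**
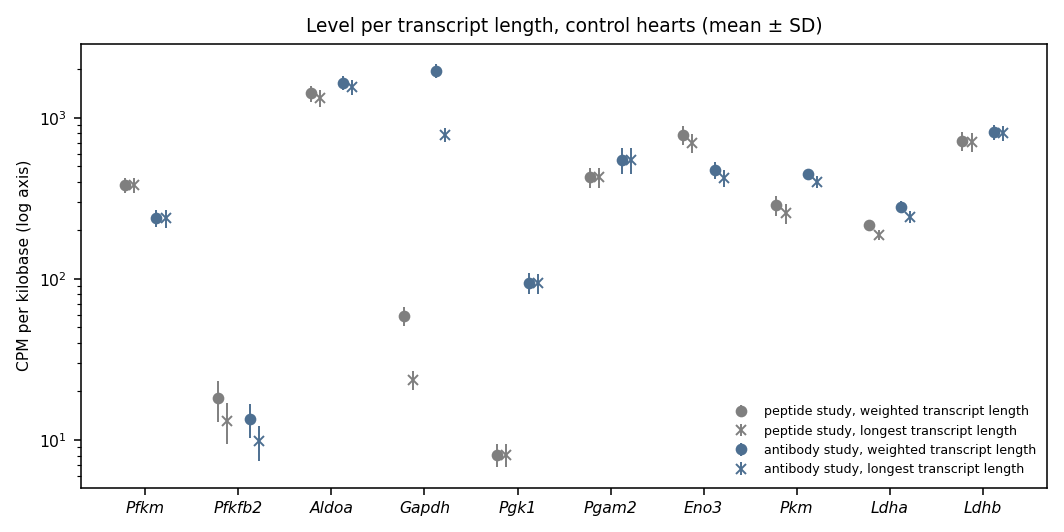
CPM per kilobase of the 10 enzymes in control hearts, mean and SD on a log axis, in the peptide study (grey, n = 7) and the antibody study (blue, n = 8), with abundance-weighted lengths (circles) and the longest transcript (crosses). Most enzymes lie at like heights in both studies, while *Gapdh* and *Pgk1* lie more than 10 times higher in the antibody study.

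The 2 tables were not normalised together, so their ratio is a description. Mean CPM over all hearts of *Gapdh* was 75.3 in the peptide table and 2558 in the antibody table, a ratio of 34, and that of *Pgk1* was 14.4 and 172, a ratio of 11.9. For the other 8 enzymes the ratio lay between 0.633 (*Eno3*) and 1.62 (*Pkm*). The leading transcript of each gene was cut into overlapping 31-base words, and the share of words also found in transcripts of other genes was counted. *Gapdh* shared 84.1% of its words, with 125 annotated pseudogenes among the 132 genes that held at least 100 of them, *Pgk1* 68.3% with 4 pseudogenes, and *Pkm* 59.6% with 5. *Pfkm*, *Pgam2* and *Eno3* shared none. The genes that share words with *Gapdh* held 54.7 CPM together in the peptide table, where *Gapdh* held 75.3, and 63.6 CPM in the antibody table. How the peptide table was summed to genes is not given in the sources used here, and the part of shared sequence in the ratio was not tested. The comparison of groups is within a table, and fold changes of *Gapdh* and *Pgk1* in the peptide study rest on counts of 289 to 491 and of 46 to 100 per heart.

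Genes outside the 10 enzymes were read the same way. Of the other listed genes with a mean of at least 5 CPM over both tables, the 6 with 50% or more of their words elsewhere had ratios from 1.57 to 28.7 (median 3.87), and the 60 below 50% had a median of 0.643. *Rpl13a*, *Ppia* and *Pgam1* were among the high ones, at 28.7, 9.88 and 28.5, although *Pgam1* shared only 42.1%. *Mdh1* went the other way at 0.0428, with 4.82% of its words shared. These genes and the 50% threshold were picked after their values were seen.

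**Figure D5:**
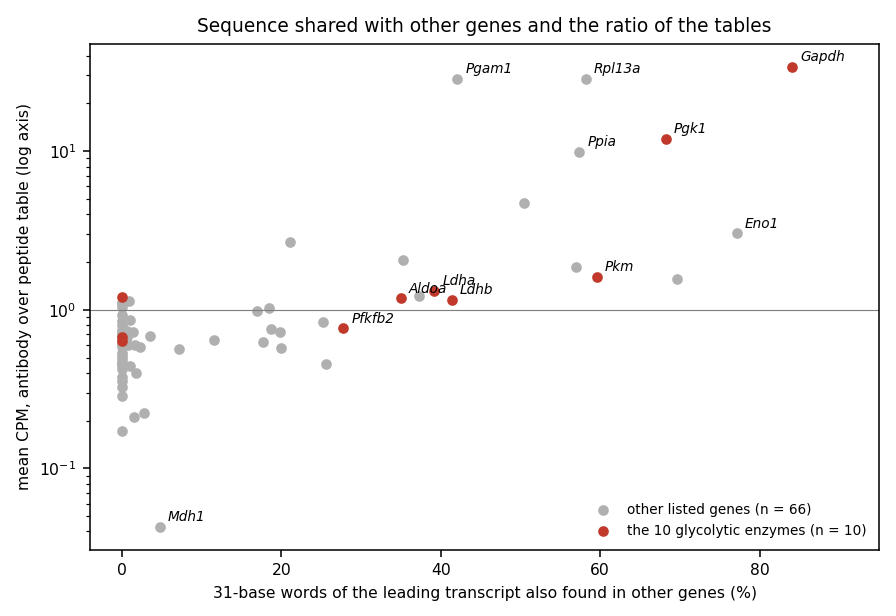
Ratio of mean CPM in the antibody table to that in the peptide table, on a log axis, against the percent of 31-base words of the leading transcript that other genes also hold, for the 10 enzymes (red) and other listed genes (grey). *Gapdh* at 34 and *Pgk1* at 11.9 lie at the upper right, and the other 8 enzymes lie between 0.633 and 1.62.

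Only the antibody table holds transcripts. *Pgam2* had a single counted transcript, and the share of the most counted transcript was compared for the other 9 by a two-sided exact permutation test over hearts, adjusted over 10477 genes with more than 1 counted transcript. *Ldha*, *Ldhb*, *Pgk1* and *Aldoa* were each counted almost wholly on 1 transcript, between 92.1% and 99.9% in both groups. Ldhb-201 took 98.3% ± 0.305 (SD, n = 8) of the *Ldhb* count with 3D6 and 97.6% ± 0.604 (n = 8) with the control antibody, 0.719 percentage points apart (exact permutation p = 0.00357, adjusted p = 1). Lowest, median and highest hearts had 97.7%, 98.4% and 98.8% with 3D6 and 96.3%, 97.8% and 98.3% with the control antibody. The groups overlapped, the rest of the count lay mostly on the shorter Ldhb-204, and 19 of the 10477 genes (0.181%) had a p as low. The other 8 enzymes had exact p of 0.114 or more, and over all these genes 363 (3.46%) were under 0.05 and 0 passed the adjustment.

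Pkm-202, which carries the upstream of the exons printed above, took 57.8% ± 5.43 (SD, n = 8) of the *Pkm* count with 3D6 and 53.1% ± 11.3 (n = 8) with the control antibody, and Pkm-201 most of the rest. Per length, Pkm-202 made up 62.4% ± 5.3 of the pair with 3D6 and 57.5% ± 11.5 with the control antibody (exact permutation p = 0.331). The lowest, median and highest heart had 55.5%, 60.7% and 68.9% with 3D6 and 31.6%, 60.4% and 69.6% with the control antibody. The medians were nearly equal, and the lowest control heart was 22, with 27.8% of the gene on Pkm-202, against 48.9% in the next lowest control. That heart also had the lowest share of the leading transcript of *Pfkm*, 27.9%, of *Gapdh*, 28.1%, and of *Pfkfb2*, 0%. The split between transcripts of a gene is an estimate of Salmon, which shares reads among them.

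For *Pfkfb2*, Pfkfb2-205 was the most counted transcript, at 53.1% ± 13.6 with 3D6 and 53% ± 22.8 with the control antibody, and it is annotated as a target of nonsense-mediated decay. The most counted coding transcript, Pfkfb2-203, took 18.4% of the gene over all hearts. *Pfkm* was divided between Pfkm-201 with 76.1% and Pfkm-205 with 23.9%, and *Eno3* mostly between a transcript of 1454 bases with 77% and one of 1564 bases with 19.3%.

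The promoters of the enzymes were read for 3 motifs, as a description. RefSeq promoters of GRCm38.p6 were matched for all 10 genes, 19 promoters in all, and the 250 bases before each start were searched on both strands. ACGTG is a form of the core that hypoxia-inducible factors bind, and the other form, GCGTG, was not searched for. ACGTG was found in 6 of 10 enzymes, *Pfkm*, *Pfkfb2*, *Aldoa*, *Pgk1*, *Pkm* and *Ldha*, and in 18.5% of 27025 genes. CANNTG, the E-box, was found in 8 of 10 and in 69.3% of genes. The MEF2 element was found in 1 of 10, *Pgam2*, and in 3.42% of genes. Genes differ in their number of promoters, so the counts are also given per promoter. ACGTG was found in 9 of the 19 and in 16.6% of 32851 promoters. CANNTG was found in 14 and in 66.2%, and MEF2 in 1 and in 2.92%. A CACGTG holds both ACGTG and CANNTG. Some promoters of a gene overlap, and a single ACGTG site of *Aldoa* is counted in more than 1 promoter.

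The promoters below are shown because the genes of the 2 lactate dehydrogenase subunits differ in the first motif: the *Ldha* promoter shown, the more 5′ of the 2 in the RefSeq table, has 5 matches over both strands and that of *Ldhb* has none, and the *Pgk1* promoter has 2. They lie at chr7:46845554-46845803 (plus strand) for *Ldha*, chr6:142507958-142508207 (minus strand) for *Ldhb* and chrX:106186850-106187099 (plus strand) for *Pgk1*, and capitals mark ACGTG on either strand. The *Ldha* window lies inside the GENCODE span of the gene given above, which starts further 5′. The *Ldhb* window shown does hold GCGTG, which was not searched for.
Ldha promoter: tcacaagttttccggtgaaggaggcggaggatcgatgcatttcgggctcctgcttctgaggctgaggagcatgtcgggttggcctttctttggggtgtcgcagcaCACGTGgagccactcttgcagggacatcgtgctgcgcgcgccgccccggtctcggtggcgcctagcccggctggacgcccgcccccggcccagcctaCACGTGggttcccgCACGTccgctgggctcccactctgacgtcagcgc
Ldhb promoter: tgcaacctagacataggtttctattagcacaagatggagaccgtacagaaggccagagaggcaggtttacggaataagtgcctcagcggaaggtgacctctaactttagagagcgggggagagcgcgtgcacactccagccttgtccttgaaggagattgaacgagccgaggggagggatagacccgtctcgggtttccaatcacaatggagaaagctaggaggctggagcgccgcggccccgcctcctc
Pgk1 promoter: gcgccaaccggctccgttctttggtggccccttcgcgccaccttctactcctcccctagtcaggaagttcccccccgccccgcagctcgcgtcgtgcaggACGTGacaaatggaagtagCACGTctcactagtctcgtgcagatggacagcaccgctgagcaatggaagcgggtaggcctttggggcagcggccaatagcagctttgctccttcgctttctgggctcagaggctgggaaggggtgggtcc

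Neighbouring steps of the pathway were read from lists of other genes. Of the 6 genes of glucose entry, 0 had an unadjusted p under 0.05 in either study. *Slc2a4*, the insulin-responsive glucose transporter, was the most counted of them in the peptide study, with 379 ± 67.3 CPM with Aβ42 and 398 ± 67.2 with ScrAβ42 (log2 fold change -0.07), and *Gpi1*, glucose phosphate isomerase, in the antibody study, with 440 ± 29 with 3D6 and 446 ± 31.1 with the control antibody (-0.02). Of the other isozymes, 10 of 16 were tested for peptide and 9 for antibody treatment, 0 with an unadjusted p under 0.05. *Tpi1*, triose phosphate isomerase, led both, with log2 fold changes of 0.02 and 0.

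Of the 5 tested genes of a list on the control of fructose 2,6-bisphosphate (*Pfkfb1*, *Pfkfb3*, *Pfkfb4*, *Tigar* and, as the enzyme that this sugar inhibits, the fructose bisphosphatase *Fbp2*), 1 was above and 4 below 0 in the peptide study (49.5% of all genes below 0), and 4 above and 1 below 0 in the antibody study (47.4% of all genes above 0). In the former, 1 had an unadjusted p under 0.05, beside 6.51% of all genes. This was *Pfkfb3*, the inducible form, with 45.6 ± 33.8 CPM with Aβ42 and 25.5 ± 4.29 with ScrAβ42 (log2 fold change 0.85 ± 0.322, unadjusted p = 0.0185, edgeR adjusted p = 0.702). The Aβ42 hearts spread from 19.9 to 119 CPM and the ScrAβ42 hearts from 20.3 to 31.7. Its log2 fold change was 0.39 without heart Abeta42_3457 and -0.07 without the hearts above 100 CPM of atrial markers. *Tigar*, which breaks this sugar down, was the most counted, with log2 fold changes of -0.14 for peptide and 0.05 for antibody treatment.

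Glycogen metabolism had 14 tested genes, 4 above and 10 below 0 in the peptide study (median -0.04; 49.5% of all genes below 0) and 11 above and 3 below 0 in the antibody study (median 0.14; 47.4% of all genes above 0). *Pygm*, the muscle glycogen phosphorylase, had log2 fold changes of -0.15 ± 0.145 and 0.13 ± 0.0859 (edgeR adjusted p = 0.889 and 0.946), and the former was 0.07 when the atrial marker score entered the fit. In the antibody study *Pygm* spread from 953 to 1143 CPM with 3D6 and from 697 to 1057 CPM with the control antibody. How the counts of this list change between settings or without single hearts was not computed. *Phkg1*, a catalytic subunit of phosphorylase kinase, had 59.8 ± 19.8 CPM with Aβ42 and 41.6 ± 11.2 with ScrAβ42 (log2 fold change 0.52 ± 0.199, unadjusted p = 0.0184, edgeR adjusted p = 0.702), and a log2 fold change of 0.36 without heart Abeta42_3457. No gene of this list passed the test in either study.

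At the fate of pyruvate, 5 transport genes and 4 pyruvate dehydrogenase kinases were tested. *Bsg*, the chaperone of the lactate transporters, had log2 fold changes of -0.18 ± 0.233 and 0 ± 0.0966. *Pdk4*, the kinase that shuts off pyruvate oxidation on fasting, had 2279 ± 535 CPM with Aβ42 and 2367 ± 262 with ScrAβ42 (-0.05 ± 0.144), and 613 ± 269 CPM with 3D6 and 427 ± 199 with the control antibody (0.52 ± 0.302, unadjusted p = 0.1, edgeR adjusted p = 0.946). *Pdk3* had 6.46 ± 5.88 CPM with Aβ42 and 2.75 ± 1.65 with ScrAβ42 (1.23 ± 0.48, unadjusted p = 0.021, edgeR adjusted p = 0.702). Its Aβ42 hearts spread from 2.48 to 18.8 CPM and its ScrAβ42 hearts from 1.31 to 6.2. Neither *Pdk4* nor *Pdk3* passed the adjusted test.

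In the pentose phosphate pathway 7 genes were tested, 6 above 0 in the peptide study (median 0.1; 50.5% of all genes above 0) and 6 below 0 in the antibody study (median -0.15; 52.6% of all genes below 0), 0 with an unadjusted p under 0.05. *Taldo1*, transaldolase, was the most counted, at 0.05 and -0.08. Of the glycerol 3-phosphate and malate shuttles, which pass the reducing equivalents of cytosolic NADH into mitochondria, 10 genes were tested. In the peptide study 1 had an unadjusted p under 0.05, beside 6.51% of all genes. In the antibody study 0 had one, beside 3.64%. *Gpd1* had 100 ± 64.8 CPM with Aβ42 and 61.9 ± 5.67 with ScrAβ42 (0.7 ± 0.279, unadjusted p = 0.0236, edgeR adjusted p = 0.708), and a log2 fold change of 0.32 without heart Abeta42_3457. *Mdh1* in the peptide study (-0.01) and *Mdh2* in the antibody study (0.05) were the most counted. In the peptide study 3 of the 10 shuttle genes were above and 7 below 0 (49.5% of all genes below 0), with a median of -0.02. With 3D6, 9 of the 10 were above 0 (47.4% of all genes), with a median of 0.16. The lowest antibody study heart had 13.1 CPM per kilobase of *Mdh1*, against a median of 153. These counts were not computed without single hearts. Of 10 tested hypoxia-responsive genes outside glycolysis, 0 had an unadjusted p under 0.05 in either study, and *Epas1* (-0.09) and *Egln1* (0.18) were the most counted. Of the 10 reference genes other than *Gapdh*, 0 had one, and *Sdha* led, at -0.09 and 0.19.

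Markers of tissue makeup were read in the same fits, and none passed the adjusted test with edgeR. The counts for the peptide study stand beside 49.5% of all genes below 0, 50.5% above 0 and 6.51% with an unadjusted p under 0.05. Of 8 cardiomyocyte markers in the peptide study, 6 were below 0 (median -0.16), of which *Myh7*, the slow myosin heavy chain, had an unadjusted p under 0.05 (log2 fold change -0.49 ± 0.147, unadjusted p = 0.00449, edgeR adjusted p = 0.639) and *Myh6* led at -0.12. All 5 atrial markers were above 0, with *Bmp10* at 6.81 ± 1.89 (unadjusted p = 0.00242, edgeR adjusted p = 0.639) and *Myl4* at 2.38. *Bmp10* reached 1209 CPM in the Aβ42 hearts, whose mean was 184 CPM. *Myl4* reached 1515 CPM in the ScrAβ42 hearts, whose mean was 221 CPM. A single heart thus carried most of each of these means. All 4 smooth muscle markers were above 0, with *Cnn1* at 2.51 ± 1.01 and *Acta2* at 1.22, and all 4 tested adipocyte markers, with *Plin1* at 2.66 ± 1.24 and *Ucp1* at 9.13 ± 2.3 (unadjusted p = 0.00114, edgeR adjusted p = 0.551). *Ucp1* was at 0 to 0.194 CPM in the ScrAβ42 hearts, so its fitted fold is no measured size. With DESeq2 *Ucp1* did pass the adjusted test, at a log2 fold change of 9.59. The smooth muscle sum was 2016 CPM in heart Abeta42_3457 and at most 327 CPM in the other Aβ42 hearts. Without this heart *Acta2* was at -0.15, *Cnn1* at 0.1 and *Plin1* at 0.94. With DESeq2 *Acta2* was at -0.14 and *Cnn1* at 0.08, and with the atrial marker score in the fit they were at -0.18 and -0.41. Of the 5 endothelial markers 2 were above 0, *Emcn* at 0.34 ± 0.136 and *Pecam1* at 0.22, and 3 below 0, the lowest at -0.14, with a median of -0.1 over the list. All 5 red cell markers were below 0, with *Hbb-bs* at -1.37. It spread from 331 to 2770 CPM with Aβ42 and from 431 to 9053 CPM with ScrAβ42. The highest red cell sum was that of heart ScrAbeta42_3448, 15945 CPM, against a median of 3317 CPM in its group. *Dcn* of fibroblasts (0.04), *Lyz2* of macrophages (-0.07) and *Myh4* of fast skeletal muscle (-0.72) had p over 0.05. Below 0 were 3 of 5 fibroblast, 5 of 5 macrophage and 6 of 8 tested fast skeletal muscle markers.

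In the antibody study the 5 endothelial markers were all below 0, 2 of them with an unadjusted p under 0.05, *Pecam1* (-0.23 ± 0.0844) and *Emcn* (-0.25 ± 0.0955), both with an edgeR adjusted p of 0.946, and *Cdh5* led at -0.08. Below 0 were also 6 of 8 cardiomyocyte markers (median -0.09, lowest -0.34), 4 of 4 tested atrial, 5 of 5 red cell, 5 of 5 fibroblast, 3 of 4 smooth muscle and 4 of 5 macrophage markers, beside 52.6% of all genes. The most counted genes of these lists were *Myh6* (0.02), *Myl4* (-0.54), *Hbb-bs* (-0.13), *Dcn* (-0.14), *Acta2* (-0.16) and *Lyz2* (-0.16), and no gene of these lists had an unadjusted p under 0.05 (3.64% of all genes). *Myl4* turned to 3.2 without control heart 15 and to 2.92 with DESeq2. The median atrial sum was higher with 3D6, 98.5 CPM, than with the control antibody, 2.88 CPM. Fast skeletal muscle and adipocyte markers were too low to be tested, at summed levels of at most 10.8 and 9.86 CPM.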

How the data were processed

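The authors trimmed the reads and quantified them by Salmon against mouse transcripts of GENCODE vM24 (GRCm38). The deposited peptide table holds whole-number counts per gene, and the deposited antibody table holds estimated counts per transcript. How the former was summed to genes is not given in the sources used here. Transcripts were summed here to genes with GENCODE vM21, which lists 99.2% of them and 99.5% of the peptide genes, and were rounded to whole numbers. The 1123 unlisted transcripts (0.381% of counts) stayed as rows of their own, and 1 column that matches no labelled sample was not used. Genes averaging 10 or more counts in a heart were tested in each study apart with edgeR 4.0.16 (R 4.3.3, TMM, quasi-likelihood test, Benjamini-Hochberg over all genes), after the script was tested on simulated data. DESeq2 1.42.0, limma-voom (limma 3.58.1), other scalings, filters and covariates, and leaving out each heart were alternatives. Plotted and printed CPM use TMM library sizes. Replicate pairs differed by more than sampling noise (chi-square per degree of freedom 3.5 to 102).

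The enzymes and gene lists were chosen with earlier results of these data known. Named genes were all 10 enzymes and, from each other list, the most counted gene and up to 3 genes with the smallest unadjusted p under 0.05. The 5 genes most like the enzymes were those with the highest smaller r of both studies. The adjustment of the transcript shares was first planned over the enzymes alone and was replaced, after those values had been seen, by one over all 10477 genes.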

Additional observations from a re-analysis of the deposited data

Results flagged for a closer look

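In 9 of 62 groups of hearts examined, 1 heart lay far from the others for the range of its treatment group. Chance gives about 1 in 20 groups when values are spread normally. The groups reuse the same hearts and most enzymes vary together, so the 9 marked groups were not tested against this rate. The next values given in brackets are those of the same group. Control heart 22 was the one in 4 of them, with the lowest *Pfkm* level (489 CPM, next lowest 662), the lowest *Pgk1* level (118 CPM, next lowest 167), and the lowest shares of the leading transcript of *Pkm* (27.8%, next lowest 48.9%) and of *Pfkfb2* (0%, next lowest 50%). It also had the lowest share of mitochondrial counts, 25.9% against 28.7% in the next, and the part of this in these values was not tested.

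3D6 heart 24 had the lowest *Pfkfb2* level of its group (27.9 CPM, next lowest 39.2), although control hearts 11, 15 and 19 had 29 to 37.5 CPM, and the lowest share of the leading *Pgk1* transcript (99.6%, next lowest 99.9%). The log2 ratio of *Ldha* to *Ldhb* was the highest of its group in heart Abeta42_3457 (-1.23, next -1.71, with up to -1.51 in the ScrAβ42 group) and in 3D6 heart 7 (-1.39, next -1.56), where control heart 11 was as high, at -1.39. Heart ScrAbeta42_3449 had the highest *Pkm* level of its group, 803 CPM against 639 CPM in the next, while heart Abeta42_3460 of the other group had 793 CPM.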

How the results depend on the processing

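No enzyme passed the adjusted test in either study under any of the settings run, 26 for peptide and 28 for antibody. The lowest unadjusted p of an enzyme was 0.06 (lowest adjusted p 0.493) and 0.0727 (lowest adjusted p 0.699). The count of genes called in the peptide study was 12 with DESeq2 and between 0 and 3 when 1 heart was left out, 3 without heart Abeta42_3452 and 1 without heart ScrAbeta42_3448. The *Ldha* to *Ldhb* difference in the peptide study lay between -0.113 and 0.019 when 1 heart was left out. With the longest transcript as length, 8 enzymes kept their rank per length among peptide study hearts and 7 among antibody study hearts. No paired analysis was possible because the groups compared share no replicate numbers. Depth limits *Pgk1* in the peptide study most, at 46 to 100 counts per heart. Where a value turned, the cause was not tested.

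With DESeq2, log2 fold changes turned sign in the peptide study for *Acta2* (-0.14) and in the antibody study for *Pgk1* (0), *Tpi1* (0), *Myl4* (2.92). DESeq2 also brought *Ucp1* in the peptide study (9.59) past the adjusted test. With total counts in place of TMM, log2 fold changes turned sign in the peptide study for *Pgam2* (0.01), *Mdh1* (0.01) and in the antibody study for *Pkm* (-0.01), *Ldhb* (-0.04), *Bsg* (-0.04), *Mdh2* (0), *Myh6* (-0.03). With atrial marker score as a covariate, log2 fold changes turned sign in the peptide study for *Pfkm* (0.06), *Aldoa* (0.12), *Gapdh* (0.01), *Pgk1* (0.1), *Pgam2* (0.13), *Eno3* (0.08), *Pkm* (0.11), *Ldha* (0.06), *Ldhb* (0.24), *Slc2a4* (0.14), *Tigar* (0.03), *Pygm* (0.07), *Bsg* (0.07), *Mdh1* (0.18), *Epas1* (0.06), *Sdha* (0.11), *Myh6* (0.01), *Dcn* (-0.36), *Acta2* (-0.18), *Cnn1* (-0.41) and in the antibody study for *Tpi1* (0), *Myl4* (0.36). With fast skeletal muscle marker score as a covariate, log2 fold changes turned sign in the peptide study for *Tpi1* (-0.1), *Lyz2* (0.01) and in the antibody study for *Bsg* (0), *Myl4* (1.24). With mitochondrial share as a covariate, log2 fold changes turned sign in the peptide study for *Tpi1* (-0.01) and in the antibody study for *Aldoa* (0.01), *Gapdh* (0.05), *Eno3* (0.05), *Ldha* (0.01), *Gpi1* (0.03), *Tigar* (-0.09), *Taldo1* (0), *Myl4* (1.01), *Hbb-bs* (0.21). With the hearts above 100 CPM of atrial markers left out (chosen after seeing the data), log2 fold changes turned sign in the peptide study for *Pgk1* (0.28), *Pgam2* (0.08), *Pkm* (0.05), *Ldhb* (0.15), *Pfkfb3* (-0.07), *Mdh1* (0.09), *Epas1* (0.04), *Myh4* (0.13), *Dcn* (-0.06), *Acta2* (-0.33), *Cnn1* (-2.14) and in the antibody study for *Gapdh* (0.02), *Pgk1* (0.06), *Eno3* (0), *Ldha* (0.02), *Tpi1* (0.05), *Myh6* (-0.03). With limma-voom, log2 fold changes turned sign in the antibody study for *Pgk1* (0.01), *Bsg* (0), *Myl4* (1.24). With RLE size factors, log2 fold changes turned sign in the antibody study for *Pgk1* (0), *Tpi1* (0). With upper-quartile size factors, log2 fold changes turned sign in the antibody study for *Ldhb* (0), *Bsg* (0). With no filter on low counts, log2 fold changes turned sign in the antibody study for *Pgk1* (0.01), *Tpi1* (0.01). With at least 10 counts in every heart, log2 fold changes turned sign in the antibody study for *Pgk1* (0).

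With 1 heart left out, log2 fold changes in the peptide study that turned sign at least once ranged from -0.15 to 1.4 for *Acta2*, from -0.16 to 0.01 for *Aldoa*, from -0.28 to 0.05 for *Bsg*, from -0.12 to 0.26 for *Dcn*, from -0.17 to 0.01 for *Gapdh*, from -0.11 to 0.08 for *Ldhb*, from -0.15 to 0.13 for *Lyz2*, from -0.07 to 0.06 for *Mdh1*, from -0.14 to 0.03 for *Pdk4*, from -0.09 to 0.06 for *Pgam2*, from -0.16 to 0.02 for *Pgk1*, from -0.16 to 0.01 for *Pkm*, from -0.15 to 0 for *Slc2a4*, from -0.06 to 0.11 for *Tpi1*. With 1 heart left out, log2 fold changes in the antibody study that turned sign at least once ranged from -0.03 to 0.05 for *Bsg*, from -0.08 to 0.01 for *Eno3*, from -0.07 to 0.01 for *Gapdh*, from -0.24 to 0.06 for *Hbb-bs*, from -0.02 to 0.05 for *Ldhb*, from -1.08 to 3.2 for *Myl4*, from -0.06 to 0.03 for *Pgk1*, from -0.03 to 0.12 for *Tigar*, from -0.04 to 0.02 for *Tpi1*. The differences in leading transcript share did so, in percentage points, from -1.19 to 0.433 for *Eno3*, from -7.54 to 3.12 for *Pfkfb2*, from -0.0539 to 0.00461 for *Pgk1*.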
